A study of Mus musculus with 4 samples.

Results

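The nucleosome remodelling and deacetylase (NuRD) complex was represented by 10 genes of the 16537 in the table. They were taken by name: *Mta1*, its paralogs *Mta2* and *Mta3*, and the partner subunits *Chd3*, *Chd4*, *Hdac1*, *Hdac2*, *Rbbp4*, *Rbbp7* and *Mbd3*. *Mta1* was chosen by the fold enrichment of its mRNA in protrusions in these same libraries, so its difference between fractions is given as a description without a test. The 9 partners were listed as subunits of the same complex. RNA was sequenced from YUMM1.7, a single mouse melanoma cell line that was engineered to resemble human melanoma, carries activated *Braf* and deactivated *Cdkn2a* among its alterations in both fractions and is labelled wildtype, with no treatment other than fractionation. Cells sat on inserts with 1-µm pores whose undersides were coated with fibronectin, so that protrusions grew through the pores while cell bodies stayed above. The cell bodies were scraped off, and the protrusions were collected with the cleaned membrane. Each fraction was sequenced in 2 libraries, labelled as biological replicates 1 and 2, and each library came from 6 inserts.

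NuRD joins 2 enzymatic activities in one nuclear complex, ATP-driven nucleosome remodelling by a CHD helicase and removal of acetyl groups from histone tails by HDAC1 and HDAC2. MTA proteins form the scaffold that holds the deacetylases, RBBP4 and RBBP7 are histone-binding WD40 proteins, and MBD2 or MBD3 links the deacetylase part to GATAD2A or GATAD2B and so to the helicase. The complex is best known for silencing genes during development and differentiation. Its proteins act in the nucleus, whereas the measurements here are of their mRNAs in the 2 fractions as collected.

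The libraries held 25854946 to 30994908 reads assigned to genes, recovered from the table as described under processing, and 14784 to 15123 genes were detected in each. One library stood apart: 11 of 11 liver genes were highest in protrusions replicate 1, where they summed to 58.1 TPM (a length-scaled measure of a transcript's share of a library, with the same total in every library), against 2.95 TPM in protrusions replicate 2 and 0.999 and 2.82 TPM in the cell bodies. The part of this RNA in the results below was not tested, and values without that library are given for the members and for most of the other genes that passed the test. Of the melanocyte genes in the table, *Mitf* was at 5.12 to 6.17 TPM, *Tyr* at 0.195 to 0.762 TPM and *Pmel* at no more than 0.0696 TPM, so the pigment genes were near 0, and *Sox10*, *Tyrp1*, *Dct* and *Mlana* were not analysed here. Reads of *Cdkn2a* (4.82 to 5.69 TPM) were present in every library, and the table does not show which exons they came from. The white blood cell gene *Ptprc* was at no more than 0.0785 TPM, and 3 fibroblast genes summed to 193 and 249 TPM in cell bodies and 112 and 93.0 TPM in protrusions, mainly through *Pdgfra*. The study's evenly spread control mRNAs *Ppia*, *Ywhaz*, *Rhoa* and *Arpc3* had log2 fold changes between -0.08 and 0.27, none of which passed the test. The nucleus-retained RNA *Malat1* was at 1833 and 2781 TPM in cell bodies and 1368 and 1420 TPM in protrusions (log2 fold change -0.70, limma adjusted p = 0.0874, or 0.00895 when replicates were blocked), and *Neat1* at 101 and 164 TPM against 99.4 and 72.2 TPM (log2 fold change -0.60, limma adjusted p = 0.187). The mean TPM of *Malat1* and *Neat1* in protrusions was thus 0.604 and 0.647 of that in cell bodies. How much nuclear or cell body RNA the protrusion fraction held was not tested, and every difference is given for the fractions as collected. TPM is a share of a library, so a higher level in protrusions is a higher share of protrusion RNA. It does not give the amount of RNA per cell in a fraction.

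Several protrusion mRNAs carry stretches rich in G and A in their 3′ UTRs that are known to matter for their localization. For the MTA family, the 30-base window of the annotated 3′ UTR with the most purines, among windows with at least 8 A and at least 8 G, is therefore shown, together with that of *Rab13*, a localized mRNA known for such a stretch. Each is given 5′ to 3′ on the coding strand from GENCODE M21 transcripts (GRCm38), with the longest unbroken run of A and G in capitals.
Mta1: gtggacatgtGGGGAAGAAGtgtggtctaa
Mta2: AGGGGAAGGGAGGtgggatgagaggtagag
Mta3: gggaccctcatggtGAAAGGAGAGAAccga
Rab13: ggaagaaaggggcAGGGAAAGGAGGGGGAG

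The *Mta1* window lay at chr12:113136840-113136869 on the plus strand, in the 3′ UTR within the last of 20 exons, at bases 172 to 201 after the stop codon, and held 21 purines. Of 14458 annotated 3′ UTRs of at least 30 bases, 80.2% had a window with as many or more, against 11.2% for the 27 purines of *Mta2* (chr19:8951663-8951692, plus strand) and 80.2% for the 21 of *Mta3* (chr17:83814701-83814730, plus strand). The *Rab13* window (chr3:90225722-90225751, plus strand) held 29, a number that 4.16% of 3′ UTRs reached. By the same measure *Kif1c* and *Net1*, localized mRNAs that the study also describes as using GA-rich elements, reached 27 and 21. The count of *Net1* was thus the same as that of *Mta1*. Among 3′ UTRs of similar length, within a factor of 1.5, the shares were 79.9% for *Mta1*, 5.20% for *Mta2*, 49.9% for *Mta3* and 88.4% for *Net1*. The count therefore did not set *Net1* apart, and a low count does not show that such an element is absent. In the MTA family the richest stretch was thus that of *Mta2*, not that of *Mta1*. The 3′ UTR of the *Kif1c* transcript used was 1508 bases, shorter than the study states, so 1 annotated transcript can miss part of a 3′ UTR. The count is a description of letters in an annotated window and says nothing of whether a factor binds there.

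*Mta1* mRNA made up a larger share of the protrusion libraries than of the cell body libraries, while the level of *Mta2* was nearly the same in both. *Mta1* (chr12:113098278-113137206, plus strand), which encodes metastasis-associated protein 1, was at 24.1 and 19.95 TPM in the 2 cell body libraries and at 69.6 and 69.0 TPM in the 2 protrusion libraries. The fractions did not overlap, and the protrusion libraries lay closer to each other than the cell body libraries did. The means were 22.0 ± 2.93 TPM in cell bodies and 69.3 ± 0.444 TPM in protrusions (SD, n = 2), a log2 fold change of 1.64 on the log2(TPM + 0.5) scale, or 3.11-fold. Within replicates 1 and 2 the log2 difference was 1.51 and 1.76. Between 718 and 3258 reads stood behind each of these values, and the log2 fold change was 1.63 without protrusions replicate 1. *Mta1* ranked 18th of the 11400 genes tested by fold change.

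*Mta2* (chr19:8941875-8952303, plus strand), the most abundant paralog, was at 100.2 and 100.6 TPM in cell bodies and at 103.9 and 101.5 TPM in protrusions. Its levels did not overlap between fractions but differed by a few percent, and the estimate of 0.03 on the log2 scale did not pass the test (95% confidence interval -0.23 to 0.29, limma adjusted p = 0.871). *Mta3* (chr17:83706163-83821516, plus strand), the least abundant, was at 11.2 and 14.8 TPM in cell bodies and at 15.7 and 15.2 TPM in protrusions. Its 2 cell body libraries were further apart than its fraction means, and the log2 fold change of 0.25 did not pass the test (95% confidence interval -0.19 to 0.69, limma adjusted p = 0.376). For *Mta3* the difference was 0.47 in replicate 1 and 0.04 in replicate 2.

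The make-up of the MTA mRNAs differed accordingly. *Mta1* was 17.8% and 14.7% of the summed MTA TPM in the cell bodies and 36.8% and 37.2% in the protrusions, a rise in the mean from 16.3 ± 2.15% to 37.0 ± 0.252% (SD, n = 2). *Mta2* went from 74.0% and 74.3% to 54.9% and 54.7%. *Mta3* held 8.26% and 10.9% in cell bodies and 8.29% and 8.18% in protrusions, and its shares overlapped. The shares of a library have a fixed total. The share of *Mta2* therefore fell beside the rise of *Mta1*, although the level of *Mta2* moved little. The summed MTA level was 135.5 and 135.4 TPM in cell bodies and 189.1 and 185.6 TPM in protrusions, and the sum of *Mta2* and *Mta3* without *Mta1* was 111.4 and 115.4 TPM against 119.5 and 116.6 TPM. In TPM, there was 0.240 and 0.198 of *Mta1* for each *Mta2* in cell bodies, and 0.670 and 0.680 in protrusions.

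**Figure D1:**
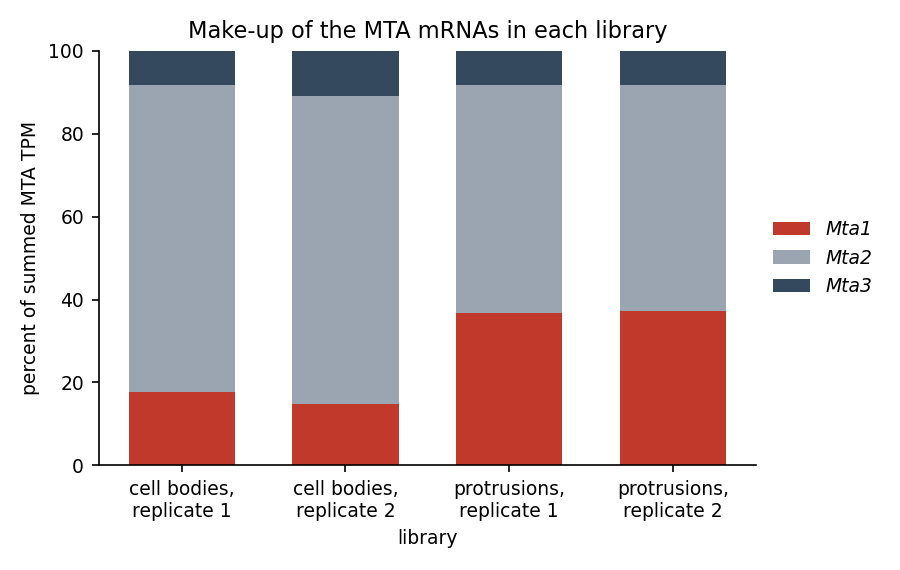
Stacked bars give the percent of the summed TPM of *Mta1*, *Mta2* and *Mta3* that each contributed, with 1 bar for each of the 4 libraries. *Mta1* (red) rose from 17.8% and 14.7% in the cell body libraries to 36.8% and 37.2% in the protrusion libraries, *Mta2* (light grey) stayed the largest share in every library, and *Mta3* (dark) stayed between 8.18% and 10.9%.

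The CHD helicases are the motor subunits of NuRD, and one NuRD complex holds one of them. *Chd3* (chr11:69343273-69369406, minus strand) was at 15.3 and 10.8 TPM in cell bodies and at 23.7 and 22.6 TPM in protrusions. Both protrusion libraries lay above both cell body libraries, and the differences within replicates were 0.61 and 1.03 on the log2 scale. The log2 fold change of 0.82 (95% confidence interval 0.34 to 1.30) missed the threshold when replicates were not blocked (limma adjusted p = 0.0603) and passed it when the replicate number entered as a block (limma adjusted p = 0.00830). At 1.77-fold, *Chd3* was the member nearest below the 2-fold enrichment by which the study chose localized mRNAs. Of the 9 partners 0 reached it, against 0.895% of all tested genes, and *Mta1*, at 3.11-fold, was chosen by it.

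*Chd4* (chr6:125095981-125130591, plus strand), the major helicase by level, was at 103.8 and 111.9 TPM in cell bodies and at 139.5 and 123.5 TPM in protrusions. The log2 fold change was 0.28 (95% confidence interval -0.01 to 0.58, limma adjusted p = 0.173), so the higher protrusion values did not pass the test. *Chd3* supplied 12.9% and 8.78% of the 2 helicase mRNAs in cell bodies and 14.5% and 15.4% in protrusions, so *Chd4* stayed in large excess in every library. *Chd5*, a helicase known mainly from neurons and testis, was at 0.116 to 0.180 TPM, with 16 to 29 reads a library, and fell below the minimum for the test.

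The deacetylase mRNAs did not share the pattern of *Mta1*. *Hdac1* (chr4:129516104-129542713, minus strand) was at 85.9 and 99.5 TPM in cell bodies and at 69.8 and 84.6 TPM in protrusions. It was the member whose protrusion values both lay below its cell body values, by a narrow gap, and the log2 fold change of -0.26 did not pass the test (95% confidence interval -0.63 to 0.10, limma adjusted p = 0.270). Without protrusions replicate 1 it was -0.13. *Hdac1* counts are uncertain, since 58.7% of the 50-base stretches of its transcript also occur in other annotated transcripts, 56.4% in *Gm10093*, which was not analysed here. *Hdac2* (chr10:36974544-37001889, plus strand), with none of its 50-base stretches shared, was at 219 and 207 TPM in cell bodies and at 209 and 189.6 TPM in protrusions. These values overlapped, and the log2 fold change was -0.09 (95% confidence interval -0.37 to 0.18, limma adjusted p = 0.599). After a correction for GC content the estimate turned to 0.12. The summed level of both deacetylases was 304.6 and 306.0 TPM in cell bodies and 278.7 and 274.1 TPM in protrusions, and *Hdac1* held 25.1% to 32.5% of it over the 4 libraries.

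RBBP4 and RBBP7 serve several chromatin complexes besides NuRD, and the level of *Rbbp7* was the highest of the 10 genes. *Rbbp7* (chrX:162760402-162779092, plus strand) was at 414.0 and 420.0 TPM in cell bodies and at 414.7 and 374.8 TPM in protrusions. The fractions overlapped (log2 fold change -0.08, 95% confidence interval -0.35 to 0.19, limma adjusted p = 0.647), and the estimate was 0.13 after the GC correction. *Rbbp4* (chr4:129307100-129335370, minus strand) was at 138 and 116 TPM in cell bodies and at 155.0 and 151 TPM in protrusions, and the log2 difference of 0.27 did not pass the test (95% confidence interval -0.04 to 0.58, limma adjusted p = 0.206). With the GC correction it was 0.50 (limma adjusted p = 0.0939, and 0.0250 when replicates were also blocked). *Rbbp4* contributed 25.0% and 21.7% of the 2 mRNAs in cell bodies and 27.2% and 28.7% in protrusions. Both genes overlap genes on the opposite strand, *Sync* for *Rbbp4* and *Txlng* for *Rbbp7*. These neighbours were at no more than 4.84 and 7.43 TPM.

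**Figure D2:**
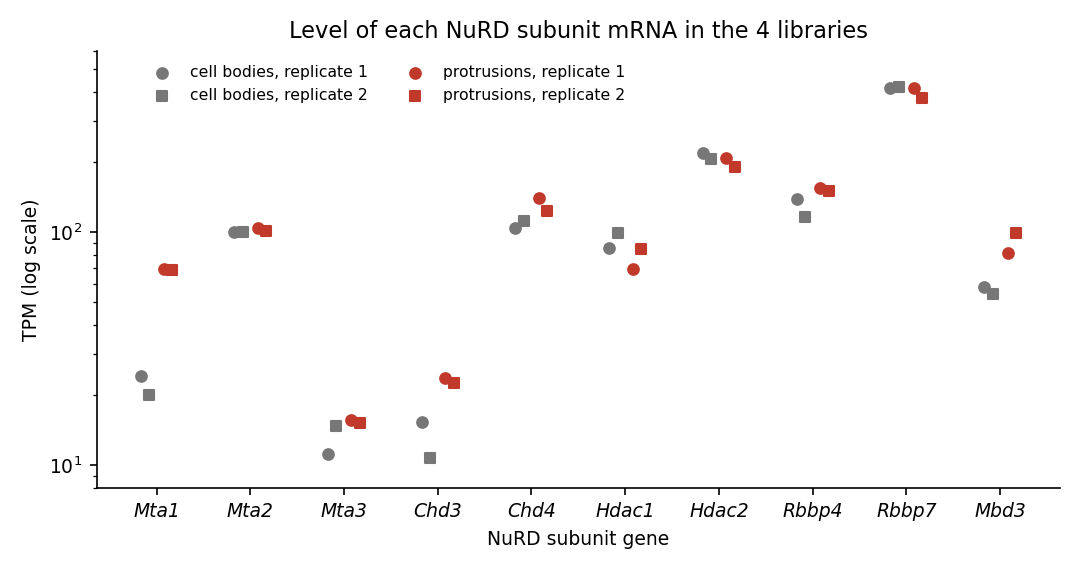
The TPM of each of the 10 NuRD genes is plotted on a logarithmic axis for the 4 libraries, grey for cell bodies and red for protrusions, with circles for replicate 1 and squares for replicate 2. *Mta1* has the widest gap between grey and red, from 24.1 and 19.95 TPM to 69.6 and 69.0 TPM, while the points of *Mta2*, *Hdac2* and *Rbbp7* lie close together.

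*Mbd3* encodes the MBD protein of NuRD that lacks strong binding to methylated DNA. It was the 1 partner that passed the test without the replicate block, and with the block *Chd3* passed too. *Mbd3* (chr10:80392539-80399550, minus strand) was at 58.1 and 54.5 TPM in cell bodies and at 81.7 and 99.0 TPM in protrusions. The fractions did not overlap, and the means rose from 56.3 ± 2.56 to 90.4 ± 12.2 TPM (SD, n = 2). The log2 fold change was 0.67 (SE 0.14, 95% confidence interval 0.33 to 1.01, limma adjusted p = 0.0475), with 0.49 in replicate 1 and 0.86 in replicate 2. Its transcript had a GC content of 62.9%, above that of 98.3% of the genes, and after a correction for GC content the log2 fold change was 0.36 (limma adjusted p = 0.134). With any 1 of the 4 libraries left out the log2 fold change was 0.54 to 0.81, and *Mbd3* was not called. Such a fit also ended most or all calls over all tested genes.

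The other subunits of the deacetylase-helicase bridge lay mostly on the protrusion side. *Gatad2a*, which ties the MBD protein to the CHD helicase, was at 41.0 and 35.5 TPM in cell bodies and at 61.4 and 65.6 TPM in protrusions and rose by the test (log2 fold change 0.73, SE 0.13, limma adjusted p = 0.0400). After the GC correction the log2 fold change of *Gatad2a* was 0.60 (limma adjusted p = 0.0551). It was 0.77 without protrusions replicate 1. *Cdk2ap1*, a small accessory subunit, was at 164.0 and 216 TPM in cell bodies and at 270.1 and 291 TPM in protrusions (log2 fold change 0.57, limma adjusted p = 0.0774, and 0.00965 with the block). *Mbd2*, the methyl-DNA-binding alternative to *Mbd3*, was at 76.7 and 61.4 TPM against 87.9 and 95.4 TPM (log2 fold change 0.41, limma adjusted p = 0.124). *Gatad2b* overlapped, with 10.5 and 15.2 TPM in cell bodies and 13.8 and 13.4 TPM in protrusions (log2 fold change 0.11, limma adjusted p = 0.758). Of the *Mbd2* and *Mbd3* mRNAs together, *Mbd3* was 43.1% and 47.0% in cell bodies and 48.2% and 50.9% in protrusions.

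**Figure D3:**
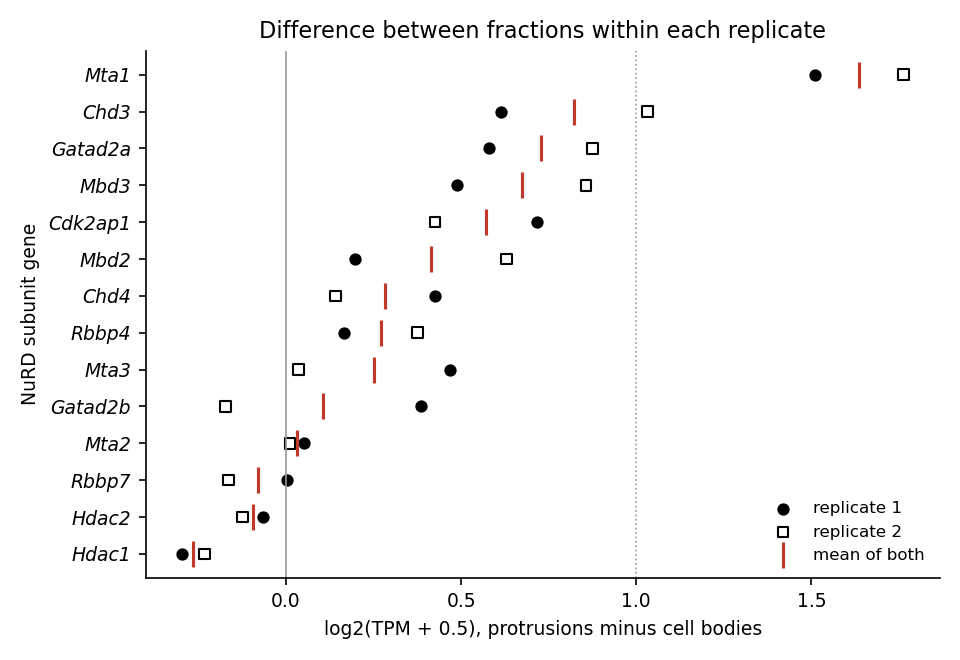
For 14 NuRD genes, the difference of log2(TPM + 0.5) between protrusions and cell bodies is shown for replicate 1 (filled circles), replicate 2 (open squares) and their mean (red ticks), with the solid line at no difference and the dotted line at 2-fold. *Mta1*, at 1.51 and 1.76, was the gene with both replicates beyond 2-fold, and *Chd3* reached it in replicate 2 at 1.03.

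Over the 9 partners, 1 was called higher in protrusions (*Mbd3*) and 0 were called lower by limma without the block, where 7.25% of the 11400 tested genes were called, 2.99% higher and 4.25% lower. With the block 2 were called higher (*Mbd3* and *Chd3*) and 0 lower, against 8.08% and 13.3% of all tested genes. Without regard to the test, 6 of the 9 lay higher in both protrusion libraries than in both cell body libraries (*Mta2*, *Mta3*, *Chd3*, *Chd4*, *Rbbp4* and *Mbd3*), an arrangement found for 26.4% of tested genes, and *Hdac1* lay lower in both, as did 37% of tested genes. *Hdac2* and *Rbbp7* overlapped. The median log2 fold change of the partners was 0.25, against -0.07 over all tested genes. Without protrusions replicate 1 the log2 fold changes of the partners were 0.01 for *Mta2*, 0.23 for *Mta3*, 0.79 for *Chd3*, 0.19 for *Chd4* and 0.81 for *Mbd3*. They were -0.13 for *Hdac1*, -0.16 for *Hdac2*, 0.25 for *Rbbp4* and -0.15 for *Rbbp7*. No partner was called in that fit, which also ended most calls over all tested genes. With 2 libraries against 2, an exact permutation test of a single gene cannot go below p = 0.333.

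The order of levels was nearly the same in both fractions. In cell bodies it ran from *Rbbp7* through *Hdac2*, *Rbbp4*, *Chd4*, *Mta2*, *Hdac1*, *Mbd3* and *Mta1* to *Chd3* and *Mta3*, and only the last pair overlapped. In protrusions *Mbd3* and *Hdac1* overlapped, and all other neighbours in the order were separate. *Mta1* held the eighth place in both, but its distance to its neighbours changed: it was at 0.280 and 0.201 of the *Hdac1* level in cell bodies and at 0.997 and 0.815 of it in protrusions. *Mta1* made up 2.06% and 1.73% of the summed TPM of the 10 genes in cell bodies and 5.43% and 5.60% in protrusions. The summed TPM of the 9 partners was 1145 and 1135 in cell bodies and 1213 and 1161 in protrusions.

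Relative to each partner, *Mta1* was higher in protrusions in both replicates. The log2 ratio of *Mta1* to *Mta2* shifted by 1.46 in replicate 1 and 1.75 in replicate 2, and that to *Mta3* by 1.04 and 1.73. The shift was smallest against *Chd3*, at 0.90 and 0.73, and against *Mbd3*, at 1.02 and 0.91, the 2 partners with the largest log2 fold changes of their own. It was largest against *Hdac1*, at 1.81 and 2.00. These shifts carry no test, since *Mta1* was chosen for its enrichment.

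Other chromatin complexes share subunits or enzyme families with NuRD, and 86 of their genes in the table fell into 11 lists that include the other NuRD subunits. Of the 82 that passed the minimum level, 8 were called higher and 0 lower, against 2.99% and 4.25% of all tested genes. With the block 16 and 3 were called, against 8.08% and 13.3%. These shares of all tested genes are the base for each list below. Their median log2 fold change was 0.15. The CoREST complex, which pairs HDAC1 and HDAC2 with the demethylase KDM1A, had 2 of 8 called higher and a median of 0.38. Its *Hmg20b* went from 18.3 and 17.9 TPM to 28.3 and 35.0 TPM (log2 fold change 0.78, limma adjusted p = 0.0447), and its scaffold *Rcor1* from 16.4 and 18.5 TPM to 30.4 and 26.8 TPM (log2 fold change 0.70, limma adjusted p = 0.0479). *Kdm1a* was called with the block alone (log2 fold change 0.63, limma adjusted p = 0.0635, and 0.01004 with the block).

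The Sin3 complex, the other large assembly around HDAC1 and HDAC2, had 0 of 12 called in either direction, against 7.25% of all tested genes. Its median was -0.05. Its *Arid4b* was at 25.3 and 28.8 TPM in cell bodies and 18.7 and 14.3 TPM in protrusions (log2 fold change -0.71, limma adjusted p = 0.0651, and 0.0173 with the block), whereas *Suds3* was on the protrusion side (log2 fold change 0.50, limma adjusted p = 0.0775, and 0.0214 with the block) and *Arid4a* was at -0.38 (limma adjusted p = 0.142). The 3 tested genes of the mitotic deacetylase complex MiDAC had 0 called and a median of 0.38, with *Dnttip1*, *Elmsan1* and *Trerf1* at 0.38, 0.35 and 0.42. Polycomb repressive complex 2, which shares the RBBP proteins, had 0 of 9 called and a median of 0.00, with *Aebp2* at 0.50 and *Mtf2* at -0.53 on the log2 scale (limma adjusted p = 0.0613 and 0.0811, and 0.0278 and 0.0417 with the block) and *Suz12* at 0.37. The list of the histone chaperone CAF-1 and the acetyltransferase HAT1, also RBBP users, had 0 of 3 called, with *Chaf1a* at 0.42, *Chaf1b* at 0.02 and *Hat1* at -0.27, and *Bptf* of the NURF remodeller was at 0.23.

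Of the SWI/SNF remodellers, 4 of 23 were called higher and 0 lower, against 2.99% and 4.25% of all tested genes. Their median was 0.31. *Smarcb1*, a core subunit, went from 49.8 and 42.7 TPM to 79.1 and 82.1 TPM (log2 fold change 0.80, limma adjusted p = 0.0366). *Smarcd1* was at 0.76 and *Bcl7c* at 0.72 on the log2 scale (limma adjusted p = 0.0443 and 0.0482). The other call was *Arid1b*, at 0.72. With the block 7 of 23 were called higher, against 8.08% of all tested genes. The added calls were *Smarca4*, *Smarcc2* and *Phf10*, at 0.46, 0.44 and 0.47. *Arid1b* and these added genes were picked out once the values were known. Among the CHD helicases outside NuRD, 0 of 6 were called, and all 6 lay below 0, from -0.51 to -0.06, with a median of -0.49. Of the 11400 tested genes, 4912 lay above 0, and their median was -0.07, so the sign alone is common. *Chd2* went from 25.0 and 29.5 TPM to 20.04 and 17.8 TPM (log2 fold change -0.51, limma adjusted p = 0.0874, and 0.0486 with the block), and *Chd8* and *Chd9* were at -0.51 and -0.49. *Chd3* and *Chd4* therefore had the opposite sign to the 6 other helicases of their family, a difference that was not tested. *Chd4* itself was not called.

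The other MBD genes had 0 of 5 called and a median of 0.03, with *Mbd6* at 0.50 and *Mbd4* at -0.46 on the log2 scale. Of the other HDAC genes, 1 of 8 was called higher, against 2.99% of all tested genes, and the median was 0.07. The called gene, *Hdac7*, a class IIa deacetylase, went from 11.3 and 10.4 TPM to 21.5 and 19.8 TPM (log2 fold change 0.90, limma adjusted p = 0.0356). *Hdac5*, of the same class, was at 0.70 (limma adjusted p = 0.0861, and 0.0121 with the block), and *Hdac4* at 0.44 (limma adjusted p = 0.151). Among the 92 genes of NuRD and these lists above the minimum level, *Mta1* had the largest log2 fold change, a place favoured by its choice for enrichment. *Hdac7*, *Chd3* and *Smarcb1* followed. With any 1 of the 4 libraries left out, the called genes of these lists were no longer called. Such a fit also ended most or all calls over all tested genes. Without protrusions replicate 1 the log2 fold changes of *Hmg20b*, *Rcor1*, *Smarcb1*, *Smarcd1*, *Bcl7c* and *Hdac7* were 0.93, 0.61, 0.82, 0.75, 0.76 and 0.84. The GC correction ended the calls of *Hmg20b* (0.48, limma adjusted p = 0.0927), *Smarcd1* (0.62, limma adjusted p = 0.0530) and *Bcl7c* (0.34, limma adjusted p = 0.109), whereas *Rcor1*, *Smarcb1* and *Hdac7* still passed. It brought *Aebp2* to 0.60 and *Suz12* to 0.65 (limma adjusted p = 0.0425 and 0.0440), and it moved *Arid4b* to -0.40, *Mtf2* to -0.17 and *Hdac5* to 0.43.

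**Figure D4:**
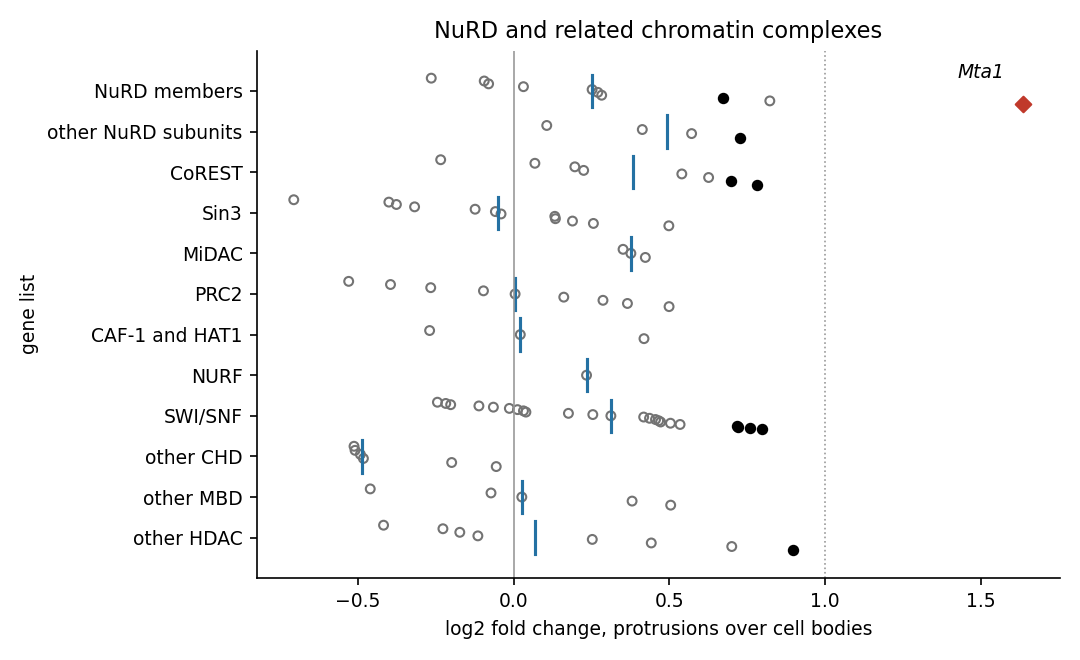
Each point is a tested gene, placed by the log2 fold change from cell bodies to protrusions, in rows for NuRD and 11 related lists. Black points passed the test (limma adjusted p under 0.05 without the block), open points did not, blue ticks are list medians without *Mta1*, the red diamond is *Mta1* (not tested), and the lines mark no difference and 2-fold. *Mta1* at 1.64, chosen for its enrichment, stands alone beyond 2-fold. The CHD genes outside NuRD all lie below 0, as do most tested genes, and the black points lie between 0.67 and 0.90.

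The profile of *Mta1* over the 4 libraries was closest to those of genes outside NuRD and the related lists. Likeness was measured as the Euclidean distance between log2(TPM + 0.5) profiles after centring each gene on its mean. *Eif3f*, a subunit of translation initiation factor 3, came first (distance 0.134), at 76.4 and 57.0 TPM in cell bodies and 194 and 202 TPM in protrusions. *Rab13*, a small GTPase, was second (distance 0.136), at 23.7 and 20.8 TPM against 63.4 and 66.8 TPM, levels close to those of *Mta1* itself. *Sh3pxd2a*, which encodes the invadopodia scaffold TKS5, came next (distance 0.181), and then *Cyb5r3*, a cytochrome b5 reductase (distance 0.275). *Med25*, *Cenpb*, *Pmepa1*, *Ybx3*, *Gnl1* and *Spef1* followed at distances of 0.341 to 0.397. The closest NuRD partner was *Chd3*, at place 169 with a distance of 0.831, then *Mbd3* at place 413, while *Mta2* was at place 4190 and *Hdac1* at place 7545. With 4 libraries in 2 fractions such profiles mainly carry the size of the difference between fractions, so the order describes these libraries alone. *Mta1* was chosen for a large difference, and the next of the 92 genes of NuRD and the lists, *Hdac7*, was at 0.90. That the nearest genes lay outside these lists was therefore largely set by the choice of *Mta1*.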

How the data were processed

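RNA-seq of cell bodies and protrusions of YUMM1.7 cells, 2 libraries each, was analysed from 1 table. The authors deposited TPM per library from strand-specific single reads of rRNA-depleted RNA aligned to mm10. The study's methods name TopHat and the submitters' processing notes FastQC, STAR, featureCounts and edgeR, without versions. How the counting treated strand was not stated in any source read. The deposited log2 values are the authors' mean log2 CPM, used here only to scale recovered reads. The authors' own log2 fold changes, likelihood ratios, p-values and FDR of the comparison were not used.

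Differences were estimated in R 4.3.3 by limma 3.58.1 with a variance trend, on log2(TPM + 0.5), for the 11400 genes whose mean reached 1 TPM. All 10 members passed this minimum. Tests were two-sided, p-values were adjusted by Benjamini-Hochberg over all tested genes, and genes were called under 0.05. Fold changes on this scale understate those of low genes. Gene length cancels within a gene, so its 4 TPM values could be turned back into whole reads, within 0.01 reads for all 16537 genes. SDs are over 2 libraries a fraction. Standard errors, 95% intervals and p-values of limma use a variance that is moderated toward a trend over all tested genes. In the fit without the block this prior had 3.81 degrees of freedom, against 2 from the libraries of the gene itself. They thus measure the spread between libraries of 1 cell line largely as borrowed from other genes. Both fractions of a replicate number came from the same inserts, the study heads them as paired, and their deviations from the fraction means correlated at 0.447 over the tested genes, so the blocked fit is given where it changed a call. The fit was also run on simulated counts. These held no pairing, replicate or GC effect, so that run does not show how the fit performs under such effects. All columns of per-sample values were used.

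The named genes were the members, the other NuRD subunits, the 3 genes of smallest p in each related list, the 10 nearest to *Mta1*, the study's control mRNAs and fixed markers. The values of some of these genes are not reported here, and counts and medians of lists include them. *Kif1c* and *Net1* were added for the sequence comparison. Members and lists were chosen with earlier results of these data known. GC content, 3′ UTRs, coordinates and shared 50-base stretches came from GENCODE M21 (GRCm38) with 1 transcript a gene. Symbols matched for 15710 genes and synonyms for 641. Alternatives were other pseudocounts and minimum levels, median centring, GC correction, no trend, the replicate block, leaving out each library and, chosen after seeing the data, limma voom on the recovered reads.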

Additional observations from a re-analysis of the deposited data

How the results depend on the processing

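Of the 9 partners, 2 were called higher with the replicate block, with the block and GC correction, with a minimum of 5 TPM and with voom on recovered reads, and 0 with no minimum TPM, with GC correction, with no trend and with any library left out. With block and GC correction the 2 were *Chd3* and *Rbbp4* (limma adjusted p = 0.00418 and 0.0250) and not *Mbd3* (0.0563), and in the other 3 fits *Mbd3* and *Chd3*. None was called lower in any of these fits. Genes of the related lists called higher numbered 16 with the block, 17 with block and GC correction, 16 with voom, 0 with no minimum, 0 with no trend and 0 with any library left out, and those called lower numbered 3, 5 and 1 in the first 3 of these and 1 at a minimum of 5 TPM. Of all tested genes, 341 were called higher and 485 lower. These were 921 and 1513 with the block, 1386 and 1612 with block and GC correction, and 775 and 889 with voom. A minimum of 5 TPM gave 505 higher and 801 lower. No minimum and no trend gave 0 and 0 (3630 and 3416 genes at unadjusted p under 0.05, limma). Leaving out a library gave 0 to 14 higher and 0 to 144 lower, with 1899 to 3157 genes at unadjusted p under 0.05. The lone library of a fraction is then assumed to vary like the others. Among the genes named, the block changed no call other than those given with the results. *Mbd3* passed in 7 fits, the one reported included, *Chd3* in 4 and *Rbbp4* in 1. Signs turned for genes that were not called. With GC correction, with and without the block, the log2 fold changes were 0.119 for *Hdac2*, 0.127 for *Rbbp7*, 0.0267 for *Hat1*, -0.00835 for *Chaf1b* and 0.00734 for *Arpc3*, and with centring 0.00387 for *Arpc3*. With a library left out, *Gatad2b* ranged from -0.151 to 0.363, *Ywhaz* from -0.0410 to 0.269 and *Chaf1b* from -0.0910 to 0.133. The cause was not tested. For *Mta1* the log2 fold change was 1.503 to 1.77 over all alternatives, and its gain in MTA share was 19.2 to 22.2 percentage points with a library left out. With 2 libraries a fraction, the log2 difference of 0.28 of *Chd4* passed the test in none of these fits.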
